A study of Homo sapiens with 45 samples.

Results

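Noradrenergic neurons make their transmitter, load it into vesicles, take it back after release and break it down, and the 9 genes described here encode the enzymes and carriers of that route. They are TH, GCH1, DDC and DBH for synthesis, SLC18A1 and SLC18A2 for storage in vesicles, SLC6A2 for uptake, and MAOA and MAOB for breakdown. They were chosen by symbol for these roles, out of 29159 genes counted in 3 neuroblastoma cell lines, and all 9 had a row in the count table of every line. RNA-seq of polyadenylated RNA was available from IMR-32, SK-N-BE(2)C and SH-SY5Y, established human lines of the adrenergic (ADRN) type, the neuron-like one of the cell states of this tumour. Each line was grown without drug (control), with 1 µM palbociclib (PB), an inhibitor of the cell-cycle kinases CDK4 and CDK6, for 24 h, and with PB for longer, which was 7 d in SK-N-BE(2)C and 5 d in IMR-32 and SH-SY5Y. There were 5 libraries per line and condition and 45 in all, from separate passages plated as independent experiments.

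SK-N-BE(2)C carries MYCN amplification and 1p loss. IMR-32 carries MYCN and MEIS1 amplification with 1p loss, and SH-SY5Y carries an ALK mutation with gain of 17q and of a 1q segment. CDK4 and CDK6 are wild type in each. Every line stood alone for its genotype, so line and genotype cannot be told apart. The control cultures were collected together with the 24 h cultures, so that the length of PB exposure and the time in culture cannot be told apart at 5 d or 7 d. The 24 h and the longer comparison of a line shared their 5 control libraries. In bulk RNA, fewer cells of a kind and less RNA per cell cannot be told apart.

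TH hydroxylates tyrosine to L-DOPA, the rate-limiting step of the route, and needs tetrahydrobiopterin, a cofactor whose synthesis starts with GCH1. DDC decarboxylates L-DOPA to dopamine, and DBH turns dopamine into noradrenaline inside the vesicle, after SLC18A1 (VMAT1) or SLC18A2 (VMAT2) has carried dopamine in. SLC6A2, the noradrenaline transporter, returns the released amine to the cell and also carries the radiolabelled analogue MIBG used to image and treat neuroblastoma, and the monoamine oxidases MAOA and MAOB degrade amines at the outer mitochondrial membrane. Neuroblastoma arises in the sympathoadrenal lineage, and breakdown products of catecholamines in urine are part of its diagnosis.

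DBH and SLC18A2 were the members whose called response to 5 d of PB differed most between IMR-32 and SH-SY5Y, and their promoter windows are shown for that reason. Each window runs from 250 bases before to 50 after the start of the gene, 5′ to 3′ on the strand of the gene, in RefSeq for GRCh38.p14, at chr9:133636113-133636412 (+) for DBH and chr10:117240864-117241163 (+) for SLC18A2. Capitals mark every match, on either strand, to TGACGTCA, the cAMP response element, to its part TGACGTC, which lies within it, and to ATTAG, which holds the core of many homeodomain protein sites.
DBH promoter: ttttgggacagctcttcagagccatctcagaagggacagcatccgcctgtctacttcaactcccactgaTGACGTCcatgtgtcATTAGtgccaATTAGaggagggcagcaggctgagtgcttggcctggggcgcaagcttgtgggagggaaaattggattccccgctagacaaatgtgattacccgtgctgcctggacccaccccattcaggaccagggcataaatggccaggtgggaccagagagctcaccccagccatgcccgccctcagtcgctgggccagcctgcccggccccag
SLC18A2 promoter: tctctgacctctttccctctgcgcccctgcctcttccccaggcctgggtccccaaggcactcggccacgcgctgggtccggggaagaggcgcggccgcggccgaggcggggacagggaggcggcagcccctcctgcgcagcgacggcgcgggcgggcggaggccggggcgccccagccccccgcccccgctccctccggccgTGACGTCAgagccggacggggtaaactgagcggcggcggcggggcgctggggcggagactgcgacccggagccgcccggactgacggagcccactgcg
The DBH window held TGACGTC at position -181 from the start and ATTAG at 2 places, the first at -166. The SLC18A2 window held the whole TGACGTCA at -48 and no ATTAG. Over 35116 promoter windows of the same length, TGACGTC was in 3.45%, TGACGTCA in 1.85% and ATTAG in 21.6%. The core of the GC box, GGGCGG, was present once in the DBH window and 5 times in that of SLC18A2, and in 45% of all windows. Of 2 E2F-type sequences, TTTCCCGC (1.63% of windows) and TTTGGCGC (0.652%), neither window held any. Of the other letters searched, CAGGTG (20.6% of windows) was in the DBH window at -20, and CAGCTG (17.9%), AGATAA (10.3%) and TATAAA (11.5%) were in neither. The windows of MAOA, MAOB and DDC were matched as well, and of these MAOA alone held an ATTAG, while none held TGACGTC. A match describes letters in a window and not a bound site, and its part in the responses was not tested. The promoters of TH, GCH1, SLC18A1 and SLC6A2 are not shown.

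In the GRCh37 (hg19) build used for the files, the genes lie at chr11:2185159-2193045 (-) for TH, chr14:55308726-55369544 (-) for GCH1, chr7:50526134-50633102 (-) for DDC, chr9:136501485-136524451 (+) for DBH, chr8:20002366-20040717 (-) for SLC18A1, chr10:119000604-119038941 (+) for SLC18A2, chr16:55689900-55741557 (+) for SLC6A2, chrX:43514155-43606064 (+) for MAOA and chrX:43625857-43741696 (-) for MAOB, all annotated as protein coding. Exons of genes on the opposite strand overlap 118 bp of DBH (DBH-AS1), 114 bp of DDC (DDC-AS1) and 2326 bp of SLC18A2 (PDZD8, SLC18A2-AS1 and an unnamed gene), and an unnamed gene on the same strand overlaps 2304 bp of SLC6A2. The libraries kept strand, but the sources used here do not say whether the counting used it, so reads in these stretches are of uncertain origin.

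Total counts per library ranged from 13459219 to 25441812. All 6 cell-cycle genes checked (E2F1, CCNE2, MCM2, RRM2, MKI67 and TOP2A) fell at 24 h in every line. Between 24 h and the longer time all 6 rose in IMR-32 (median log2 fold change 1.65), 5 rose in SH-SY5Y (1.48) and none was called in SK-N-BE(2)C (0.42), and against control all 6 were still lower in SK-N-BE(2)C and SH-SY5Y and 5 in IMR-32, where MCM2 was -0.37 ± 0.17, adjusted p = 0.0802 (-0.32 ± 0.078, adjusted p = 0.00211 without replicate 5). Of the 12 transcription factors of noradrenergic cells that were listed, 10 or 11 had a mean CPM (counts scaled to a library total of 1000000) of at least 1 in each untreated line, with TFAP2B at 0 in IMR-32 controls and NR4A2 at 0 in SH-SY5Y controls, and their CPM summed to 3158 to 3926 in SK-N-BE(2)C, 2333 to 3593 in IMR-32 and 4141 to 4829.8 in SH-SY5Y. The 3 IMR-32 libraries numbered 5 stood apart before any comparison, with 12.4%, 11.6% and 6.81% of genes more than 2-fold from the median of the other 4 libraries of their group, against at most 6.51% in the other 42. Their mesenchymal markers summed to 1238, 1032 and 482 CPM in control, 24 h and 5 d, against 660 to 734, 570 to 652 and 292 to 387 in the other IMR-32 libraries. Other lists lay apart too. The 6 cell-cycle genes summed to 2816, 484 and 1337, against 1936 to 2172, 314 to 367 and 852 to 1052. Listed cholinergic genes summed to 628, 749 and 582, against 349 to 412, 346 to 405 and 405 to 468. Noradrenergic factors were lower, at 2333, 3573 and 3357, against 2963 to 3593, 3734 to 4448 and 3453 to 3966. The part of these lists in the results was not tested. For the tests of named genes in IMR-32, or against it, the values without these libraries are given as well.

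The untreated lines expressed different parts of the route. SK-N-BE(2)C expressed the whole route of noradrenaline synthesis, SH-SY5Y expressed DBH and SLC6A2 highly but TH at under 1 CPM, and IMR-32 expressed each of TH, DBH, DDC and SLC6A2 at a lower level than SK-N-BE(2)C. TH stood at 212 ± 18.2 CPM (mean ± SD, n = 5) in SK-N-BE(2)C, at 14.2 ± 8.6 CPM in IMR-32 and at 0.349 ± 0.284 CPM in SH-SY5Y, where it rested on 6, 16, 5, 6 and 2 counts in replicates 1 to 5. Between SK-N-BE(2)C and SH-SY5Y the log2 difference in TH was 9.44 ± 0.69, adjusted p = 2.61e-15, and between SK-N-BE(2)C and IMR-32 it was 3.90 ± 0.46, adjusted p = 9.43e-10 (3.62 ± 0.23, adjusted p = 1.59e-16 without the IMR-32 libraries numbered 5). DBH ran in another order, at 1700.0 ± 346 CPM in SH-SY5Y, 25.5 ± 13.7 in IMR-32 and 477 ± 78.2 in SK-N-BE(2)C. The SH-SY5Y level exceeded that of IMR-32 by a log2 difference of 5.87 ± 0.36, adjusted p = 1.57e-17 (5.67 ± 0.36, adjusted p = 1.73e-16 without the same libraries). A gene was called here, and in every test that follows, at an adjusted p under 0.05 over all genes tested (edgeR quasi-likelihood test, Benjamini-Hochberg) together with an absolute log2 difference over 0.5. Of the 7 members tested in both lines of the pair, 6 were called between IMR-32 and SK-N-BE(2)C, and 6 between SH-SY5Y and IMR-32. Between SK-N-BE(2)C and SH-SY5Y it was 7 of 8. In these pairs 62.1%, 54.2% and 57.5% of all 16282 genes tested were called.

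The 2 vesicular transporters ran opposite to each other between SK-N-BE(2)C and SH-SY5Y. SLC18A2, the form of neurons, stood at 2.69 ± 0.217 CPM in untreated SH-SY5Y, 8.76 ± 1.69 in IMR-32 and 78.5 ± 18.4 in SK-N-BE(2)C. SLC18A1, the form best known from endocrine cells such as chromaffin cells, stood at 154 ± 16.6 CPM in SH-SY5Y and 15.4 ± 5.63 in SK-N-BE(2)C. The IMR-32 controls had no SLC18A1 count in any library, which allows up to 0.125 to 0.172 CPM per library (3 counts; counting error only). SLC18A2 was higher in SK-N-BE(2)C than in SH-SY5Y by a log2 difference of 5.07 ± 0.25, adjusted p = 6.02e-21, and SLC18A1 differed the other way, by -3.10 ± 0.25, adjusted p = 2.10e-13. SLC6A2 was not called between SK-N-BE(2)C and SH-SY5Y (0.23 ± 0.47, adjusted p = 0.669), at 472 ± 10.4 and 463 ± 32.9 CPM. The fit shares 1 estimate of the spread of a gene over all 45 libraries, IMR-32 among them. That standard error is therefore not the spread of SK-N-BE(2)C and SH-SY5Y alone.

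GCH1 and MAOA varied least between the lines. GCH1 stood at 119.7 ± 10.0 CPM in SH-SY5Y, 100.4 ± 55.2 in IMR-32 and 55.3 ± 12 in SK-N-BE(2)C, and MAOA at 36.6 ± 4.49, 56.6 ± 10.1 and 49.3 ± 13.1 in the same order. The difference of GCH1 between SH-SY5Y and IMR-32 was not called (0.07 ± 0.38, adjusted p = 0.879) and took the other sign without the IMR-32 libraries numbered 5 (-0.20 ± 0.22, adjusted p = 0.422). MAOB was all but missing outside SH-SY5Y, with 3 counts in all over the 5 SK-N-BE(2)C controls, 1 count over the 5 IMR-32 controls and 113 counts (1.09 ± 0.303 CPM) in SH-SY5Y.

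Levels of different genes are compared per kilobase of the canonical transcript. On that scale the mean of untreated SK-N-BE(2)C ran from DDC at 198 ± 6.34 CPM per kb through DBH at 174 ± 28.5, TH at 116 ± 9.95 and SLC6A2 at 79.6 ± 1.76 to SLC18A2 at 20.5 ± 4.8, GCH1 at 19 ± 4.1, MAOA at 12.5 ± 3.34 and SLC18A1 at 5.76 ± 2.1. DDC and DBH differed by less than the sum of their SDs, as did SLC18A2 and GCH1, and GCH1 and MAOA. In untreated SH-SY5Y DBH led, at 619 ± 126 CPM per kb, over DDC at 84.5 ± 4.5, SLC6A2 at 78 ± 5.55, SLC18A1 at 57.3 ± 6.17 and GCH1 at 41.1 ± 3.44, with MAOA at 9.32 ± 1.14 and SLC18A2, MAOB and TH each under 1. DDC and SLC6A2, and likewise MAOB (0.425 ± 0.118) and TH (0.191 ± 0.155), were the neighbours there that differed by less than the sum of their SDs. Untreated IMR-32 had GCH1 first, at 34.4 ± 18.9 CPM per kb, followed by DDC at 19 ± 7.02, MAOA at 14.4 ± 2.57, DBH at 9.28 ± 4.99 and TH at 7.8 ± 4.71, each of them nearer to its neighbour than the sum of their SDs, and by SLC18A2 at 2.29 ± 0.442 and SLC6A2 at 2.22 ± 2.16, which differed by less than that sum too. Without replicate 5 the means of IMR-32 ran in the same order, from GCH1 at 41.8 ± 10.9 CPM per kb (n = 4) through DDC at 22.1 ± 1.38, MAOA at 15.5 ± 0.639, DBH at 10.7 ± 4.37 and TH at 9.64 ± 2.65 to SLC18A2 at 2.44 ± 0.339 and SLC6A2 at 1.26 ± 0.188. MAOA and DBH, and DBH and TH, were then the neighbours that differed by less than the sum of their SDs. Dividing by the length of all exons joined, an alternative added after the data were seen, put DBH before DDC and SLC18A1 before MAOA in SK-N-BE(2)C, SLC6A2 before DDC and GCH1 before SLC18A1 in SH-SY5Y, and MAOA after TH in IMR-32.

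**Figure D1:**
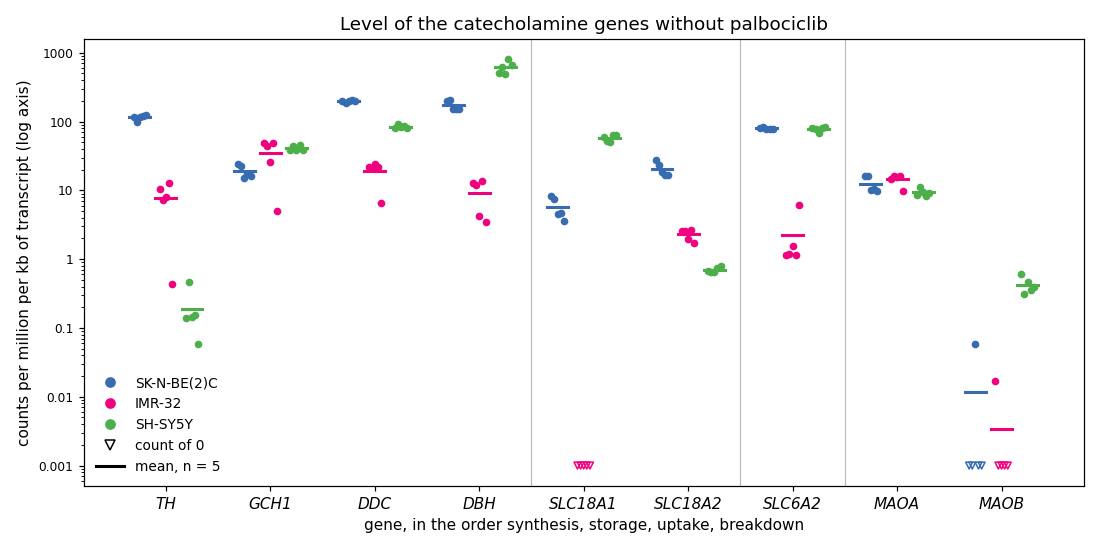
Level of the 9 genes in the 5 untreated libraries of each line, as CPM per kilobase of canonical transcript on a log axis, with the mean as a bar and counts of 0 as open triangles. TH spans the lines from 0.191 in SH-SY5Y to 116 in SK-N-BE(2)C, SLC18A1 has no count in IMR-32, and 1 IMR-32 library (replicate 5) lies far from the other 4 for TH, GCH1, DDC and SLC6A2.

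PB for 24 h raised much of the route in SH-SY5Y and in SK-N-BE(2)C. DBH, DDC, SLC18A2 and SLC6A2 rose in SK-N-BE(2)C, which is 4 of the 8 members tested, with none lower. In that comparison 21.5% of all 14055 genes tested were called, 10.9% higher and 10.6% lower. In SH-SY5Y DBH, DDC, SLC18A1, SLC18A2, SLC6A2 and MAOA rose, 6 of 9 tested, with none lower, against 21.5% of 14547 genes called and 10.5% called higher. In IMR-32 none of the 7 members tested was called, against 18.3% of 14293 genes, with DESeq2 also calling 0 and 1, MAOA, at an unadjusted p under 0.05 in edgeR. With the replicate number as a block in the IMR-32 fit, GCH1 and SLC6A2 were called higher and SLC18A2 lower, 3 of 7 against 21.8% of genes. The median log2 fold change of the members tested was 0.46 in IMR-32 (all genes tested: 0.06), 0.73 in SK-N-BE(2)C (all genes: 0.02) and 0.73 in SH-SY5Y (all genes: 0.04).

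With longer PB fewer members were called in SK-N-BE(2)C and SH-SY5Y and more in IMR-32. SK-N-BE(2)C kept SLC18A2 and SLC6A2 above control at 7 d and had MAOA below it, 3 of 8 members against 46.8% of genes called (24.5% higher, 22.3% lower), so that the share of the members was below that of all genes. In IMR-32 at 5 d TH rose while DBH and SLC18A2 fell, 3 of 7 members against 32% of genes (16.6% higher, 15.5% lower). In SH-SY5Y at 5 d SLC18A2 and MAOA were higher and DDC lower, 3 of 9 members against 35.9% of genes (18.6% higher, 17.3% lower). The members' median log2 fold change in the order of these sentences was 0.33, 0.83 and 0.45, beside 0.01, 0.003 and 0.01 over all genes. Without the IMR-32 libraries numbered 5, which removed 1 library from each group, 2 of 7 members were called in IMR-32 at 24 h (TH and GCH1, both higher), against 20.2% of genes, and 6 of 7 at 5 d, against 35%. With the replicate block it was 6 of 7 at 5 d, against 35%.

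**Figure D2:**
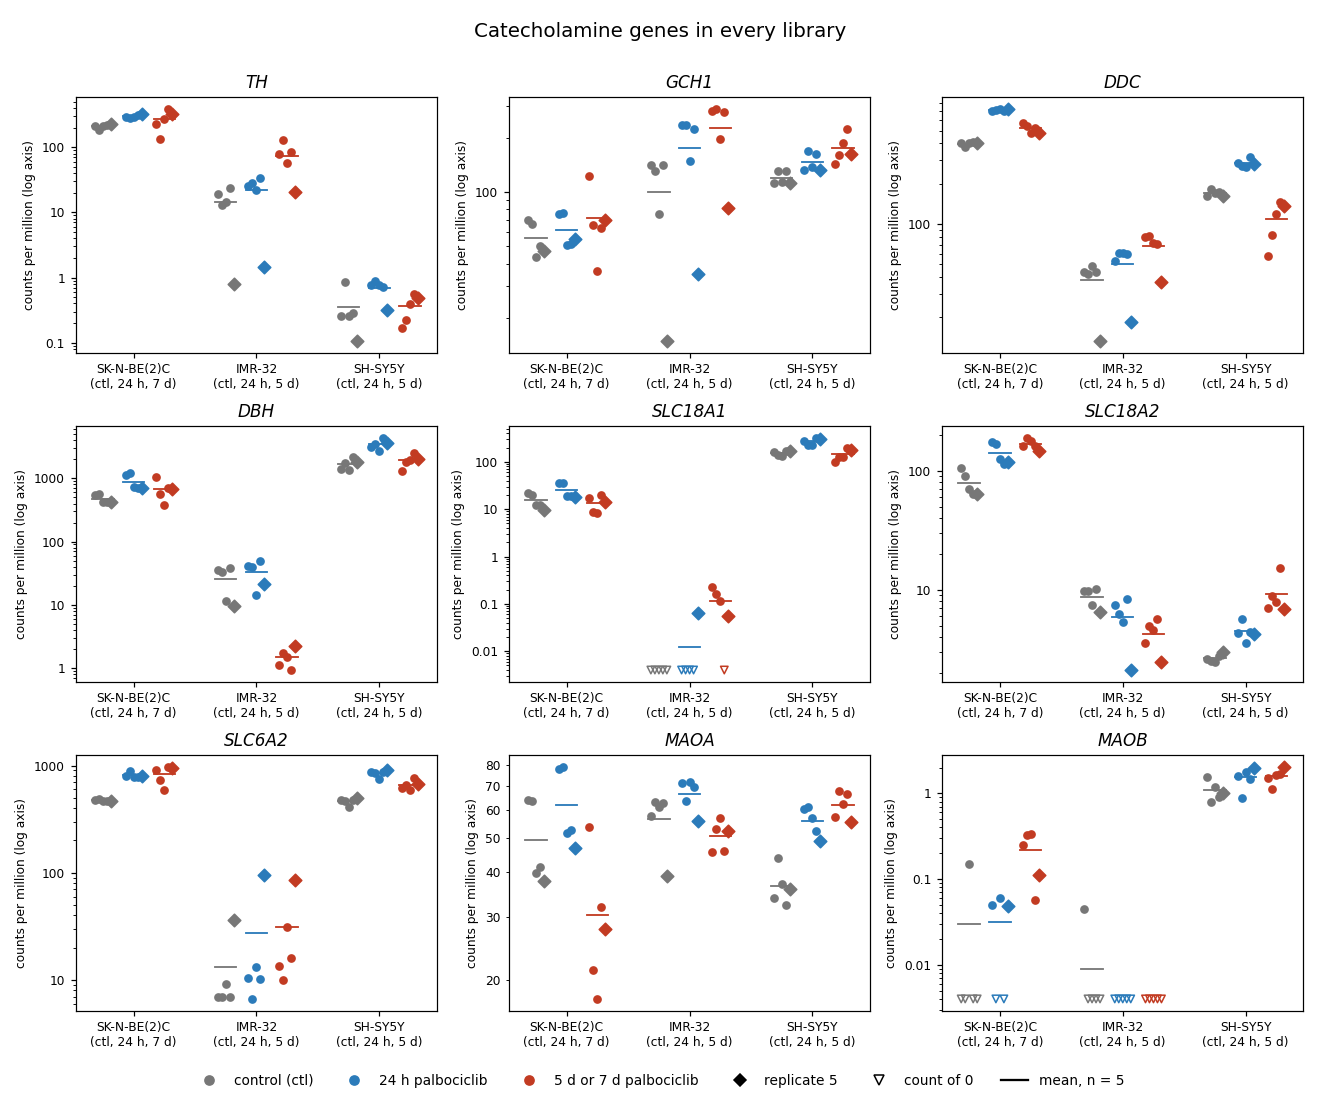
CPM of each member in all 45 libraries, on log axes, by line and by condition (grey control, blue 24 h, red 5 d or 7 d PB), with a bar at the mean of 5, replicate 5 as a diamond and counts of 0 as open triangles. DBH falls to 0.932 to 2.24 CPM in the 5 IMR-32 libraries of 5 d, SLC6A2 is above control in all treated libraries of SK-N-BE(2)C and SH-SY5Y, and the IMR-32 diamonds lie apart from the circles of their group for TH, GCH1, DDC and SLC6A2.

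**Figure D3:**
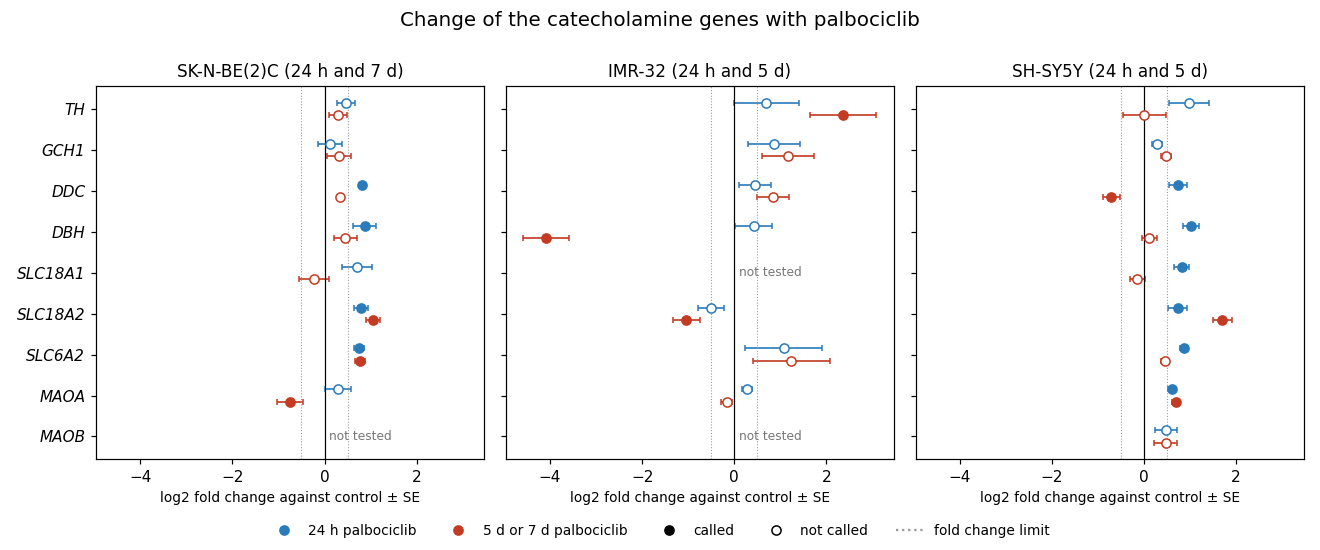
Log2 fold change of each member against control, with its standard error, after 24 h (blue) and after 5 d or 7 d of PB (red), filled where called and open where not. At 24 h every called point lies to the right of 0, while at the longer time TH and DBH of IMR-32 lie at 2.36 and -4.09.

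TH, the rate-limiting enzyme, rose in IMR-32 at 5 d and was not called against control in the other lines. Its IMR-32 controls held 19.1, 13.1, 14.5, 23.7 and 0.804 CPM in replicates 1 to 5, the 24 h libraries 25.5, 28.6, 22.3, 33.7 and 1.44, and the 5 d libraries 78.8, 129, 57.9, 84.8 and 20.4. All 5 replicate numbers were highest at 5 d, but the groups overlapped through replicate 5, whose 5 d value lay below 1 control of another number. The log2 fold change (± SE) was 2.36 ± 0.71, adjusted p = 0.0131 at 5 d, and 2.30 ± 0.24, adjusted p = 4.47e-06 without the libraries numbered 5, where the groups no longer overlapped. At 24 h it was 0.70 ± 0.70, adjusted p = 0.472, and 0.69 ± 0.24, adjusted p = 0.0366 without those libraries. From 24 h to 5 d TH passed with the replicate number as a block (1.88 ± 0.31, adjusted p = 5.07e-04) and without the libraries numbered 5 (1.61 ± 0.24, adjusted p = 1.48e-04), and when only the control (1.66, adjusted p = 0.0361) or only the 5 d library of that number was left out (1.90, adjusted p = 0.044), but not with all libraries (1.66 ± 0.70, adjusted p = 0.0776).

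TH in SK-N-BE(2)C stood at 215, 182, 212, 221 and 230.4 CPM in control, 289, 276, 295, 312 and 327 at 24 h and 227, 134, 271, 389 and 328 at 7 d. Every 24 h library lay above every control, yet the change missed both limits (0.47 ± 0.20, adjusted p = 0.0636). The 7 d libraries spread over both other groups (0.30 ± 0.20, adjusted p = 0.178), and replicates 3, 4 and 5 taken alone gave a call at 7 d (0.51 ± 0.11, adjusted p = 0.00138). That subset was chosen after the data were seen, and it leaves out replicate 2, whose 7 d value lay below its control. In SH-SY5Y the 24 h libraries held 13, 15, 13, 16 and 6 TH counts and the 5 d libraries 3, 4, 8, 10 and 8, next to the control counts above, so TH was barely detected in any condition. Its 24 h change was 0.97 ± 0.43, adjusted p = 0.0703, and at 5 d it was 0.005 ± 0.47, adjusted p = 0.994. The 24 h change was called without control replicate 2 (1.55, adjusted p = 0.00529) or without 24 h replicate 5 (1.16, adjusted p = 0.0347).

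GCH1, which opens the synthesis of the cofactor of TH, kept the order of TH over the conditions in IMR-32. It stood at 141, 129.9, 75, 142 and 14.8 CPM in control, 236, 235, 148, 225 and 34.9 at 24 h and 281, 289.7, 197, 279 and 81.3 at 5 d. Each replicate number rose at each step, and the 4 libraries other than replicate 5 did not overlap between control and either treated group. With all 5 libraries GCH1 was not called at 24 h (0.86 ± 0.56, adjusted p = 0.257) or 5 d (1.16 ± 0.56, adjusted p = 0.0985). It was called with the replicate block at 24 h (0.91 ± 0.16, adjusted p = 7.16e-04) and 5 d (1.37 ± 0.17, adjusted p = 1.93e-05), and without replicate 5 at 24 h (0.85 ± 0.21, adjusted p = 0.00509) and 5 d (1.09 ± 0.21, adjusted p = 5.34e-04).

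GCH1 moved less in the other lines. In SH-SY5Y its means were 119.7 ± 10.0 CPM in control, 147 ± 17.7 at 24 h and 175 ± 31.1 at 5 d. The 5 d change passed on p and lay just under the fold limit (0.48 ± 0.11, adjusted p = 0.00102), and it was over that limit without control replicate 2 or 4 or without 5 d replicate 1 or 2 (log2 fold change 0.51 to 0.55). In SK-N-BE(2)C GCH1 was not called, and the groups overlapped, at 24 h (0.12 ± 0.26, adjusted p = 0.727) and 7 d (0.32 ± 0.26, adjusted p = 0.279).

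DDC, the decarboxylase that makes dopamine, rose in SK-N-BE(2)C with the smallest standard error of the 8 members tested in that line. Its controls held 401, 377, 405, 410.4 and 400.0 CPM, the 24 h libraries 698, 708, 723, 702 and 727 and the 7 d libraries 574, 544, 479, 523 and 480.1. The 3 groups did not overlap, with 24 h above 7 d and 7 d above control. The log2 fold change was 0.80 ± 0.054, adjusted p = 1.06e-08 at 24 h and 0.34 ± 0.054, adjusted p = 2.71e-05 at 7 d, the latter under the fold limit.

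In SH-SY5Y DDC first rose and then fell below control. It held 162, 184, 170.0, 172 and 162 CPM in control, 286, 273, 267, 316 and 283 at 24 h and 57.9, 82.6, 119, 147 and 137 at 5 d. The 24 h libraries lay above all others and the 5 d libraries below all others. The log2 fold change was 0.73 ± 0.19, adjusted p = 0.00516 at 24 h, -0.71 ± 0.19, adjusted p = 0.00453 at 5 d and -1.44 ± 0.19, adjusted p = 6.09e-05 from 24 h to 5 d. In IMR-32 DDC stood at 43.5, 42.3, 48.5, 43.3 and 13.3 CPM in control, 53.1, 60.4, 61.1, 59.4 and 18.4 at 24 h and 80.3, 81.5, 72.3, 70.9 and 37.1 at 5 d. Its 24 h change in IMR-32 was 0.46 ± 0.35, adjusted p = 0.34, and without replicate 5 it passed on p but not on the fold limit (0.45 ± 0.079, adjusted p = 2.49e-04). The 5 d change was not called with all libraries (0.83 ± 0.35, adjusted p = 0.0594). It was called with the block (0.90 ± 0.11, adjusted p = 1.26e-05), without replicate 5 (0.77 ± 0.079, adjusted p = 5.87e-07), and when only the 24 h (0.83, adjusted p = 0.021) or the 5 d library of replicate 5 (0.99, adjusted p = 0.0283) was left out.

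DBH, which makes noradrenaline from dopamine, fell in IMR-32 by more than any other member changed in any line. The IMR-32 controls held 35.2, 33.3, 11.7, 37.7 and 9.48 CPM in replicates 1 to 5 and the 24 h libraries 41.8, 39.4, 14.1, 48.5 and 21.2, with each number at 24 h above its own control. At 5 d they held 1.11, 1.74, 1.49, 0.932 and 2.24 CPM, in counts 19, 32, 26, 17 and 40. All 5 of these lay below every control and every 24 h library. The log2 fold change was -4.09 ± 0.49, adjusted p = 1.56e-05 against control and -4.51 ± 0.50, adjusted p = 1.36e-05 against 24 h. Without replicate 5 the values were -4.49 ± 0.54, adjusted p = 3.07e-05 and -4.83 ± 0.54, adjusted p = 3.23e-05. The 24 h change was 0.42 ± 0.40, adjusted p = 0.446, and 0.34 ± 0.38, adjusted p = 0.518 without replicate 5.

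**Figure D4:**
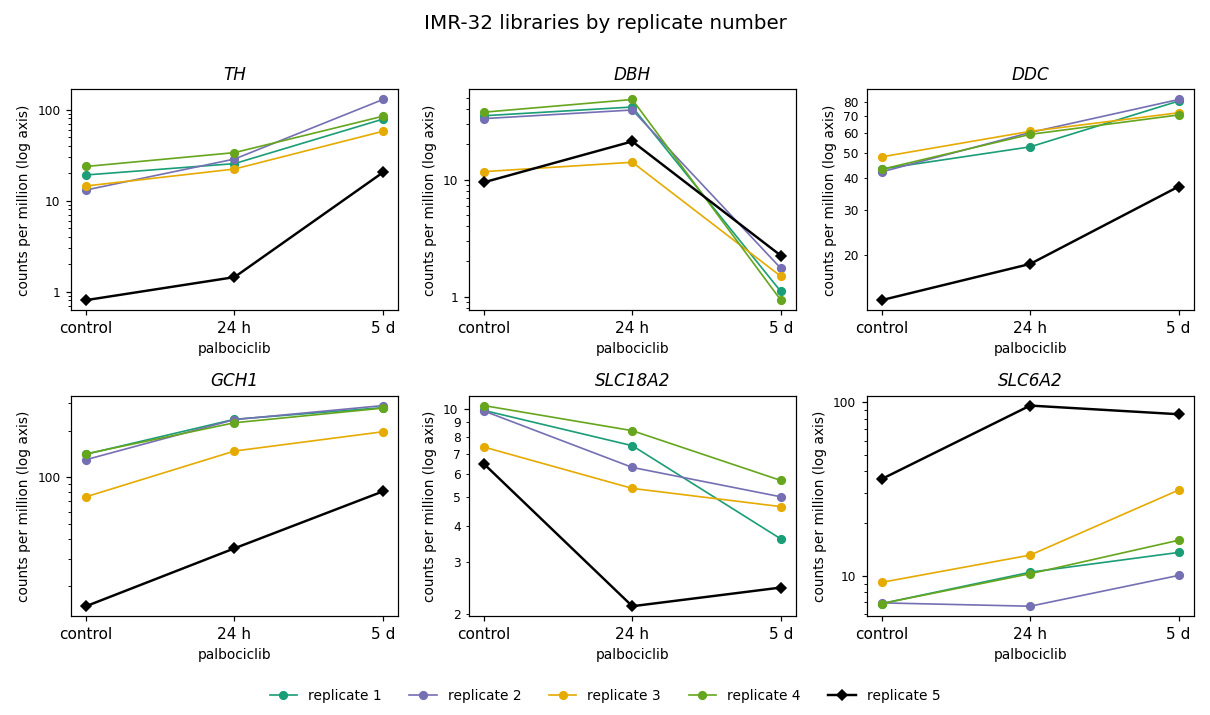
CPM of 6 members in IMR-32, on log axes, with a line for each replicate number from control through 24 h to 5 d of PB. TH, DDC and GCH1 climb in all 5 replicate numbers and DBH drops in all 5 between 24 h and 5 d, while replicate 5 (black) starts lower for TH, DDC and GCH1 and higher for SLC6A2.

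TH and DBH therefore moved apart in IMR-32. The ratio of TH to DBH counts, looked at after both changes were known and given as a description, was 0.544, 0.393, 1.24, 0.629 and 0.0848 in control replicates 1 to 5 and 71.3, 74.2, 38.8, 91.0 and 9.13 at 5 d. It had a median of 0.50 in control and 0.476 at 7 d in SK-N-BE(2)C. In SH-SY5Y TH never exceeded 4.89e-04 of DBH.

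DBH rose at 24 h in the other lines. SH-SY5Y controls held 1409.7, 1719.5, 1353, 2212 and 1806 CPM, 24 h libraries 3189.6, 3522, 2712, 4397 and 3570.2 and 5 d libraries 1322, 1824, 1977, 2485 and 2052. The 24 h libraries lay above both other groups, and the 5 d libraries overlapped the controls. The log2 fold change was 1.02 ± 0.17, adjusted p = 1.07e-04 at 24 h, 0.12 ± 0.17, adjusted p = 0.565 at 5 d and -0.91 ± 0.17, adjusted p = 5.58e-04 from 24 h to 5 d.

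SK-N-BE(2)C gave 554, 570.4, 425, 417 and 418 CPM of DBH in control, 1124, 1194, 721, 707 and 704 at 24 h and 1045, 556, 373, 692 and 688 at 7 d. Replicates 1 and 2 were higher than replicates 3 to 5 in control and at 24 h, and within both sets the 24 h value exceeded its control. The 24 h change was called (0.87 ± 0.24, adjusted p = 0.00911) and was 0.71 ± 0.21, adjusted p = 0.0279 in replicates 3, 4 and 5 alone. At 7 d DBH was not called (0.45 ± 0.24, adjusted p = 0.108) unless 7 d replicate 3 was left out (0.60, adjusted p = 0.0232).

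SLC18A2 (VMAT2) rose in SK-N-BE(2)C and SH-SY5Y and fell in IMR-32. In SK-N-BE(2)C it held 105, 89.7, 69.7, 64.3 and 63.6 CPM in control, 173, 168, 126, 114 and 117 at 24 h and 162, 189, 179, 161 and 147 at 7 d. Both treated groups lay wholly above control, by 0.80 ± 0.16, adjusted p = 6.66e-04 at 24 h and 1.05 ± 0.16, adjusted p = 2.25e-05 at 7 d. In SH-SY5Y it was a low transcript, at 2.62, 2.52, 2.5, 2.81 and 3.01 CPM in control, 4.39, 5.71, 3.62, 4.46 and 4.29 at 24 h and 7.11, 8.82, 7.87, 15.3 and 6.89 at 5 d. The 3 groups did not overlap there and rose in that order, with replicate 4 at 5 d above the other 4. The changes were 0.73 ± 0.21, adjusted p = 0.00776 at 24 h, 1.70 ± 0.20, adjusted p = 8.44e-07 at 5 d and 0.97 ± 0.19, adjusted p = 6.92e-04 from 24 h to 5 d.

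In IMR-32 SLC18A2 held 9.86, 9.82, 7.4, 10.2 and 6.49 CPM in control, 7.48, 6.31, 5.35, 8.41 and 2.13 at 24 h and 3.61, 5.01, 4.64, 5.7 and 2.46 at 5 d. Every replicate number was lower at 24 h and at 5 d than in its control, and at 5 d no library reached the lowest control. The 5 d change was -1.04 ± 0.29, adjusted p = 0.00768, and -0.99 ± 0.16, adjusted p = 8.59e-05 without replicate 5. At 24 h it was not called with all libraries (-0.51 ± 0.29, adjusted p = 0.188) or without replicate 5 (-0.39 ± 0.16, adjusted p = 0.0586), but was with the replicate block (-0.58 ± 0.17, adjusted p = 0.0159). From 24 h to 5 d it was -0.53 ± 0.29, adjusted p = 0.174, and it was called lower without replicate 5 (-0.60 ± 0.17, adjusted p = 0.00811) or without the 24 h library of that number alone (-0.75, adjusted p = 0.0155).

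SLC18A1 (VMAT1) rose in SH-SY5Y at 24 h and was back near control at 5 d. It held 158, 139, 133, 169 and 168 CPM in control, 279, 231, 224, 325 and 299 at 24 h and 98, 126, 129.8, 198 and 177 at 5 d. The 24 h libraries lay above all others, and 5 d overlapped control. The change was 0.81 ± 0.17, adjusted p = 0.00107 at 24 h, -0.14 ± 0.17, adjusted p = 0.472 at 5 d and -0.96 ± 0.17, adjusted p = 4.98e-04 between the 2 times.

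SLC18A1 in SK-N-BE(2)C held 22.5, 20.4, 12.3, 12.4 and 9.62 CPM in control, 36.7, 36.1, 19.4, 18.7 and 18.1 at 24 h and 17.4, 8.69, 8.36, 20.2 and 14.3 at 7 d. Each number rose at 24 h, while the groups overlapped because replicates 1 and 2 were higher in both. The 24 h change was not called (0.71 ± 0.32, adjusted p = 0.0823) except with the replicate block (0.70 ± 0.26, adjusted p = 0.0407) or without control replicate 1 (0.88, adjusted p = 0.0457). From 24 h to 7 d it fell (-0.93 ± 0.32, adjusted p = 0.0218), a call that was lost without 24 h replicate 1 or 2 or 7 d replicate 2 or 3 (adjusted p = 0.0540 to 0.0601). In IMR-32 it had no count in 4 of the 24 h libraries and 1 in the other, and 4, 3, 2, 0 and 1 counts at 5 d. These were too few to test. The ratio of SLC18A2 to SLC18A1 counts, a description made after the values were seen, had a median of 5.18, 6.09 and 10.3 in SK-N-BE(2)C in control, 24 h and 7 d, and of 0.0179, 0.0157 and 0.0698 in SH-SY5Y in control, 24 h and 5 d.

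SLC6A2, the noradrenaline transporter, rose in SK-N-BE(2)C at both times. It held 473, 489.8, 465, 466 and 467 CPM in control, 805, 896, 788, 779 and 791 at 24 h and 909.8, 737, 589, 978 and 939 at 7 d. All 10 treated libraries exceeded all controls, with changes of 0.75 ± 0.11, adjusted p = 2.68e-05 at 24 h and 0.77 ± 0.11, adjusted p = 6.49e-06 at 7 d. In SH-SY5Y it held 472, 467, 406, 473 and 494 CPM in control, 874, 856, 752, 862 and 905 at 24 h and 615, 658, 591, 773 and 677 at 5 d. Both treated groups were above control. The change was 0.87 ± 0.08, adjusted p = 8.15e-08 at 24 h and 0.45 ± 0.079, adjusted p = 7.36e-05 at 5 d, the latter under the fold limit.

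In IMR-32 the SLC6A2 level of replicate 5 stood far above the others. It held 6.9, 6.96, 9.15, 6.9 and 36.1 CPM in control, 10.5, 6.66, 13.1, 10.3 and 95.8 at 24 h and 13.6, 10.0, 31.2, 16 and 85.4 at 5 d. Replicate 5 was the highest library of each group, and the other 4 rose from control to 5 d without overlap. The 5 d change was 1.24 ± 0.83, adjusted p = 0.23 with all libraries, 1.24 ± 0.30, adjusted p = 0.00332 without replicate 5 and 1.16 ± 0.19, adjusted p = 1.89e-04 with the block. At 24 h it was 1.07 ± 0.83, adjusted p = 0.35, 0.49 ± 0.31, adjusted p = 0.223 and 0.71 ± 0.19, adjusted p = 0.00974 in the same order, the last being called, and it turned negative when the 24 h library of replicate 5 alone was left out (-0.34, adjusted p = 0.728).

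MAOA, the oxidase with a preference for noradrenaline and serotonin, rose in SH-SY5Y. It held 33.8, 44, 37.1, 32.4 and 36 CPM in control, 60.2, 61, 57, 52.4 and 48.9 at 24 h and 57.1, 67.5, 62.3, 66.2 and 55.3 at 5 d. All treated libraries lay above all controls, by 0.60 ± 0.085, adjusted p = 1.27e-05 at 24 h and 0.68 ± 0.085, adjusted p = 1.38e-06 at 5 d. In SK-N-BE(2)C it held 64, 63.2, 39.9, 41.5 and 37.9 CPM in control, 78.2, 79.2, 51.7, 52.6 and 46.9 at 24 h and 53.6, 21.3, 17.7, 31.9 and 27.8 at 7 d. All 5 replicate numbers were lower at 7 d than in control, though the groups overlapped. The 7 d change of -0.75 ± 0.28, adjusted p = 0.0287 was lost without control replicate 1 or 2 or 7 d replicate 2, 3 or 5 (adjusted p = 0.0541 to 0.0731), while the fall from 24 h (-1.04 ± 0.28, adjusted p = 0.00576) kept its call without any 1 library.

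In IMR-32 MAOA stayed between 39.0 and 71.9 CPM in all 15 libraries. The log2 fold change was 0.28 ± 0.12, adjusted p = 0.0788 at 24 h and -0.17 ± 0.12, adjusted p = 0.244 at 5 d. Without replicate 5 the values were 0.23 ± 0.076, adjusted p = 0.0224 and -0.29 ± 0.077, adjusted p = 0.00468, past the p limit and under the fold limit. From 24 h to 5 d it decreased by less than the fold limit (-0.44 ± 0.12, adjusted p = 0.00849), and by just over it without replicate 5 (-0.52 ± 0.077, adjusted p = 5.78e-05) or without the 24 h library of that number alone (-0.50, adjusted p = 0.00371).

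MAOB, the paralogue with a preference for trace amines, could be tested in SH-SY5Y alone. It held 1.56, 0.789, 1.2, 0.906 and 1.0 CPM in control, 1.6, 0.873, 1.78, 1.46 and 1.99 at 24 h and 1.51, 1.12, 1.64, 1.68 and 2.05 at 5 d, and the groups overlapped. The change was 0.48 ± 0.25, adjusted p = 0.12 at 24 h and 0.47 ± 0.25, adjusted p = 0.103 at 5 d. It was called without 24 h replicate 2 (0.60, adjusted p = 0.0452) and, at 5 d, without control replicate 1 (0.64, adjusted p = 0.039). SK-N-BE(2)C had 0, 0, 3, 0 and 0 MAOB counts in control, 1, 0, 1, 0 and 1 at 24 h and 4, 6, 8, 1 and 2 at 7 d. In IMR-32 treated libraries it had none, which allows up to 0.147 to 0.188 CPM per library.

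Between 24 h and the longer time 2 members fell in SK-N-BE(2)C (SLC18A1 and MAOA), against 31.9% of genes called, 17.5% higher and 14.4% lower. In IMR-32 1 fell (DBH), against 19.6% of genes, 10.8% higher and 8.86% lower. In SH-SY5Y 3 fell (DDC, DBH and SLC18A1) and SLC18A2 rose, against 16.7% of genes, 10.5% higher and 6.23% lower. DDC fell in SK-N-BE(2)C as well by p (-0.46 ± 0.054, adjusted p = 2.33e-06) but under the fold limit, which it passed without 7 d replicate 1 (-0.51, adjusted p = 1.78e-07). Without that library DBH too was called lower (-0.65, adjusted p = 0.019).

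Whether the responses differed between lines was tested in a fit of all 45 libraries. At 24 h SLC18A2 was the member called: its response in SK-N-BE(2)C exceeded that in IMR-32 by a log2 difference of 1.31 ± 0.30, adjusted p = 0.00448, and that in SH-SY5Y exceeded IMR-32 by 1.27 ± 0.35, adjusted p = 0.0281. Over all genes 4.49% and 3.07% were called in these pairs. The second call was lost without SH-SY5Y 24 h replicate 2 (1.18, adjusted p = 0.0624) and held without the IMR-32 libraries numbered 5 (1.15 ± 0.30, adjusted p = 0.016), as did the first (1.19 ± 0.25, adjusted p = 0.00159). With the replicate block GCH1 was called as well, with a smaller response in SK-N-BE(2)C than in IMR-32 (-0.77 ± 0.21, adjusted p = 0.0148; without the block -0.73 ± 0.54, adjusted p = 0.486, and -0.72 ± 0.32, adjusted p = 0.153 without the libraries numbered 5). No member was called at 24 h between SK-N-BE(2)C and SH-SY5Y, where 2.04% of genes were, and none reached an unadjusted p under 0.05. The differences in DBH, DDC, SLC18A2 and SLC6A2 had standard errors of 0.34 to 0.67 in this fit, which shares 1 estimate of the spread of a gene over all 45 libraries.

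At 5 d, 4 of 7 members differed in their response between SH-SY5Y and IMR-32, where 20.8% of genes did. DBH differed by 4.27 ± 0.50, adjusted p = 3.37e-08, SLC18A2 by 2.81 ± 0.34, adjusted p = 6.11e-08 and MAOA by 0.91 ± 0.27, adjusted p = 0.00872, each higher in SH-SY5Y. DDC differed the other way, by -1.48 ± 0.34, adjusted p = 9.90e-04. TH missed the call (-2.28 ± 1.43, adjusted p = 0.237), and passed with the replicate block (-2.44 ± 0.94, adjusted p = 0.042) and without the IMR-32 libraries numbered 5 (-2.24 ± 0.79, adjusted p = 0.0247). The block brought in GCH1 (-0.83 ± 0.21, adjusted p = 0.00259) and SLC6A2 (-0.67 ± 0.19, adjusted p = 0.00643) too, both with the smaller response in SH-SY5Y. Without the IMR-32 libraries numbered 5, 6 of 7 members were called, against 24% of genes. The differences were then 4.66 ± 0.52, adjusted p = 1.26e-08 for DBH, 2.74 ± 0.30, adjusted p = 4.41e-09 for SLC18A2, 1.02 ± 0.28, adjusted p = 0.00436 for MAOA and -1.43 ± 0.19, adjusted p = 2.25e-07 for DDC. SLC6A2 was called there (-0.74 ± 0.26, adjusted p = 0.0248) and GCH1 was not (-0.56 ± 0.31, adjusted p = 0.171). The 7 d response of SK-N-BE(2)C was not set against these, since the times differ.

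Around the members, some genes of tetrahydrobiopterin metabolism other than GCH1 were called lower with longer PB and none higher. Of 7 listed, 4 of 6 tested were lower in SH-SY5Y (beside 17.3% of all genes), 2 of 7 in IMR-32 (beside 15.5%) and 2 of 6 in SK-N-BE(2)C (beside 22.3%). Their median log2 fold change in that order was -0.68, -0.24 and -0.36. PTS, the enzyme after GCH1, had log2 fold changes of -0.71 ± 0.11, adjusted p = 1.98e-05 in SH-SY5Y, -0.73 ± 0.086, adjusted p = 1.26e-06 in SK-N-BE(2)C and, past no limit, -0.03 ± 0.16, adjusted p = 0.894 in IMR-32 (0.05 ± 0.18, adjusted p = 0.814 without replicate 5). Those of SPR, which completes the cofactor, were -0.65 ± 0.12, adjusted p = 1.01e-04 in SH-SY5Y, -0.49 ± 0.12, adjusted p = 0.00159 in SK-N-BE(2)C and -0.87 ± 0.12, adjusted p = 3.26e-05 in IMR-32 (-0.93 ± 0.10, adjusted p = 8.34e-07 without replicate 5), the value in SK-N-BE(2)C lying under the fold limit. Both genes were named after their values were seen.

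Genes that supply or release the vesicle were called higher, in part, at 24 h in 2 lines. Of 6 listed (CYB561 and ATP7A, which bring electrons and copper to DBH, SLC31A1, CADPS, CADPS2 and SLC17A9), 4 of 5 tested rose at 24 h in SK-N-BE(2)C and 3 of 4 in SH-SY5Y, with none lower, while none of 4 tested was called in IMR-32. Over all genes 10.9%, 10.5% and 7.87% were called higher in these comparisons. At the longer time 3 of 5 were higher in SK-N-BE(2)C, 1 of 4 in SH-SY5Y and 1 of 4 in IMR-32, beside 24.5%, 18.6% and 16.6% of all genes. CADPS, a priming factor of dense-core vesicles, rose in each line with longer PB, with log2 fold changes of 1.97 ± 0.10, adjusted p = 1.01e-10 in SK-N-BE(2)C, 0.68 ± 0.27, adjusted p = 0.0444 in IMR-32 (0.56 ± 0.13, adjusted p = 0.00131 without replicate 5) and 1.46 ± 0.20, adjusted p = 5.61e-06 in SH-SY5Y. Of the other carriers of amines, 2 of 2 tested rose at 24 h in SK-N-BE(2)C, 0 of 3 in IMR-32 and 1 of 1 in SH-SY5Y, and at the longer time it was 0 of 2, 1 of 3 and 1 of 1. Of 8 other enzymes of catecholamine breakdown, 2 of 7 tested rose at 24 h in SK-N-BE(2)C, 0 of 6 in IMR-32 and 1 of 6 in SH-SY5Y, with none lower. At the longer time none rose, and 2 of 7 fell in SK-N-BE(2)C, beside 22.3% of all genes, with none lower in the other lines. Of PNMT, which methylates noradrenaline to adrenaline, and 3 other aromatic amino acid hydroxylases, 2 were tested in each line, and PNMT rose at 7 d in SK-N-BE(2)C (1.68 ± 0.34, adjusted p = 3.47e-04) from under 1 CPM.

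Receptors for the amines were few. Of 14 listed, 4 or 5 were tested in each line, and at the longer time 1 rose and 1 fell in SK-N-BE(2)C, 2 fell in IMR-32, and 1 rose and 1 fell in SH-SY5Y. ADRA2A, the alpha-2A receptor through which noradrenaline restrains its own release, rose in SK-N-BE(2)C at 7 d (0.84 ± 0.31, adjusted p = 0.0249) and fell in SH-SY5Y at 5 d (-1.44 ± 0.23, adjusted p = 2.54e-05), with 0.27 ± 0.34, adjusted p = 0.529 in IMR-32 (-0.06 ± 0.26, adjusted p = 0.857 without replicate 5). The difference between SK-N-BE(2)C and SH-SY5Y was not tested, since the times differ.

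The listed noradrenergic transcription factors were called in part. At 24 h none of 12 tested was called in SK-N-BE(2)C, 4 of 11 rose in IMR-32 and 1 of 10 rose in SH-SY5Y, with none lower, beside 10.9%, 7.87% and 10.5% of all genes called higher, so that the share in IMR-32 lay above that of all genes. It was also 4 of 11 without replicate 5. At the longer time 2 rose and 2 fell in SK-N-BE(2)C, 1 rose in IMR-32 and 2 rose and 1 fell in SH-SY5Y, beside 24.5% higher and 22.3% lower, 16.6% and 15.5%, and 18.6% and 17.3% of all genes. The same shares apply to the receptors and markers at that time. At the longer time the counts of factors were close to or below these shares, with a median log2 fold change of 0.26, 0.10 and 0.08. In IMR-32 at 5 d PHOX2A, a homeodomain factor of noradrenergic identity, was 0.16 ± 0.16, adjusted p = 0.424, and HAND2 and GATA3 were 0.31 ± 0.13, adjusted p = 0.0515 and 0.34 ± 0.10, adjusted p = 0.00956 (named after the values of DBH were seen). Without replicate 5 the values were 0.09 ± 0.15, adjusted p = 0.631 for PHOX2A, 0.25 ± 0.11, adjusted p = 0.0513 for HAND2 and 0.31 ± 0.086, adjusted p = 0.00644 for GATA3. There 1 factor was called higher and 2 lower without replicate 5, and with the replicate block 2 higher and 1 lower.

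Markers of other cell kinds moved in the same libraries. Of 8 listed cholinergic genes, 7 were counted and 5 or 6 tested, and at the longer time 3 rose and 1 fell in SK-N-BE(2)C, 1 rose and 1 fell in IMR-32, and 3 rose and 1 fell in SH-SY5Y. Without replicate 5, 2 fell in IMR-32. PRIMA1, which anchors acetylcholinesterase in the membrane, fell in IMR-32 (-1.31 ± 0.19, adjusted p = 4.84e-05, and -1.45 ± 0.13, adjusted p = 1.18e-07 without replicate 5) and SH-SY5Y (-1.55 ± 0.25, adjusted p = 7.92e-05) but rose in SK-N-BE(2)C (1.45 ± 0.22, adjusted p = 2.64e-05). Of 6 chromaffin markers, which share PNMT with a list above, 3 of 5 tested rose at the longer time in SK-N-BE(2)C and 2 of 5 in SH-SY5Y, and 1 rose and 1 fell in IMR-32. Of 12 mesenchymal markers, 11 were counted, and at the longer time 7 of 9 tested were lower and 1 higher in SK-N-BE(2)C, 5 of 7 were lower in IMR-32 and 7 of 10 were lower in SH-SY5Y. In IMR-32 it was 6 of the 6 tested without replicate 5 and 7 of 7 with the block. Their CPM summed to 733 to 996 in control and 468 to 781 at 7 d in SK-N-BE(2)C, 660.1 to 1238 and 292 to 482 at 5 d in IMR-32, and 1619 to 2078 and 1115 to 1259.6 at 5 d in SH-SY5Y, and COL1A2 was at 0 in SK-N-BE(2)C controls and IFI16 in SH-SY5Y controls. Of 7 Schwann cell markers 5 were counted, and these summed to at most 13.5 CPM in any SH-SY5Y library, 9.26 in any of IMR-32 and 27.9 in any of SK-N-BE(2)C. The part of any of these in the members' changes was not tested.

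The genes most like TH, DBH and SLC18A2 were ranked by Pearson correlation of log2 CPM over the 45 libraries, with the mean of each line removed, among 12556 genes tested in all 3 lines. The libraries share 9 groups and their conditions, so the values describe these samples and carry no p. For TH they were TUBB4A (r = 0.91), ENO2 (0.89), TLE4 (0.89), LGALS3BP (0.89) and FAM163A (0.88). For DBH they were FAM163B (0.89), COPZ2 (0.84), AGPAT3 (0.83), PABPC1 (0.82) and SLC39A11 (0.82), and for SLC18A2 FER1L4 (0.82), MIR1-1HG-AS1 (0.81), TM2D1 (0.80), HSD17B12 (0.77) and FAM189B (0.75).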

How the data were processed

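RNA-seq libraries of 3 lines were analysed from the raw counts per gene that the authors deposited, 1 table per line with 15 libraries. According to the submitters' notes the reads were trimmed with Trim Galore 0.6.4 and aligned with STAR 2.6.1d to hg19. The deposited normalised values and the authors' own DESeq2 comparisons (fold changes and adjusted p-values) were not used.

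Counts were fitted with edgeR 4.0.16 (R 4.3.3) within each line, 1 mean per group, with TMM factors, filterByExpr (minimum count 10) and the robust quasi-likelihood F test. Calls needed a p under 0.05 after Benjamini-Hochberg adjustment over all genes tested, with a log2 change beyond 0.5 either way. Standard errors were derived from the F statistic. Levels are CPM scaled to the total count of each library, without TMM factors, and were divided by transcript length to compare genes. The correlations between genes used log2 CPM with TMM factors. Differences between lines came from a fit of all 45 libraries. The scripts were tested on simulated data. Alternatives were RLE factors, library size alone, no low count filter, DESeq2 1.42.0, no fold limit, the replicate number as a block and leaving out each library. The fits without IMR-32 replicate 5, and with SK-N-BE(2)C replicates 3, 4 and 5 alone, were added after the data were seen.

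Replicates are passages of a line, so p-values measure the spread between passages. Same-numbered libraries deviated together, with every correlation of deviations over 0.1, in 7 of the 9 within-line comparisons. In SK-N-BE(2)C the lowest was 0.0966 for 7 d against control and 0.0482 for 7 d against 24 h. The main fits did not pair the libraries in any line, and the replicate number entered as a block in alternative fits only.

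The 9 members and all gene lists were chosen with earlier results of these data known. Listed genes were named when called in 1 direction at the longer time in all 3 lines, or in opposite directions in any pair of lines. Fold changes of MCM2, PNMT, CHGB, PENK, DLK1 and DRD2 are given outside this rule. PTS, SPR, PHOX2A, HAND2, GATA3 and CHGA are marked where they appear as named after values were seen. Some listed genes and features of the lines are not reported here.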

Additional observations from a re-analysis of the deposited data

Results flagged for a closer look

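In 73 groups of 5 libraries with a member's CPM to check, 11 held a library far from the other 4 by Dixon's limit, which chance gives in about 1 of 20 groups. In 7 of these 11 the library was IMR-32 replicate 5. Its DDC was low in control (13.3 CPM), at 24 h (18.4 CPM) and at 5 d (37.1 CPM). Its SLC6A2 was high in control (36.1 CPM), at 24 h (95.8 CPM) and at 5 d (85.4 CPM), and its MAOA was low in control (39.0 CPM).

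The other 4 were SLC6A2 in SK-N-BE(2)C 24 h replicate 2 (896 CPM, high), TH in SH-SY5Y control replicate 2 (0.842 CPM, high) and 24 h replicate 5 (0.314 CPM, low), and SLC18A2 in SH-SY5Y 5 d replicate 4 (15.3 CPM, high). The TH values rested on 16 and 6 counts.

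The response of 4 members differed between lines in 6 tests of the difference itself (edgeR, Benjamini-Hochberg). SLC18A2 responded more at 24 h in SK-N-BE(2)C than in IMR-32, by 1.31 on the log2 scale (adjusted p = 0.00448), and more in SH-SY5Y than in IMR-32, by 1.27 (adjusted p = 0.0281). At 5 d the response in SH-SY5Y exceeded that in IMR-32 by 4.27 for DBH (adjusted p = 3.37e-08), 2.81 for SLC18A2 (adjusted p = 6.11e-08) and 0.91 for MAOA (adjusted p = 0.00872), and for DDC the difference was -1.48 (adjusted p = 9.90e-04). Against their own controls DBH fell in 5 of 5 IMR-32 replicate numbers and SLC18A2 rose in 5 of 5 SH-SY5Y replicate numbers at 5 d.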

How the results depend on the processing

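Within lines the fold limit lowered the counts of genes called. At an adjusted p under 0.05 alone, SK-N-BE(2)C had 6577, 9993 and 8335 genes at 24 h, at 7 d and between them, against 3022, 6572 and 4488 with the limit. IMR-32 had 4738, 7296 and 4914 against 2620, 4576 and 2803, and SH-SY5Y 7154, 9516 and 6331 against 3129, 5225 and 2434. Without the limit 5 of 9 members were called in SH-SY5Y at 5 d, beside 65.4% of genes. With library size alone and the limit kept it was also 5, beside 36.5%. Between 24 h and 5 d in IMR-32, 2 of 7 members were called without the limit, beside 34.4% of genes.

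IMR-32 depended on replicate 5. At 24 h, 3 members were called with the replicate block, 2 without replicate 5 and 2 with both, beside 21.8%, 20.2% and 20.6% of genes. At 5 d it was 6, 6 and 6, beside 35%, 35% and 35.3%, and between the times 2, 4 and 5, beside 23.1%, 24.5% and 24.8%. The block changed 1 other within-line call, SLC18A1 in SK-N-BE(2)C. Between lines the block gave 2 members and 1121 genes at 24 h for SK-N-BE(2)C against IMR-32, 670 genes for SK-N-BE(2)C against SH-SY5Y (542 without IMR-32 replicate 5), 926 genes for SH-SY5Y against IMR-32, and 7 members at 5 d, beside 23.9% of genes.

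Signs reversed, with no call, in these cases. In SK-N-BE(2)C they were SLC18A1 at 7 d (0.25) and TH from 24 h to 7 d (0.067) in replicates 3, 4 and 5 alone, and SLC6A2 from 24 h to 7 d with no low count filter (-0.014). In SH-SY5Y they were TH at 5 d with RLE factors (-0.0040) and DESeq2 (-0.0087), and MAOB from 24 h to 5 d with RLE factors (0.0037), library size (0.051), no filter (0.013), the block (0.0049) and DESeq2 (8.55e-04). Between lines at 24 h they were SLC6A2 in SK-N-BE(2)C against IMR-32 with the block (0.020) and without replicate 5 (0.26) and in SH-SY5Y against IMR-32 (0.17 and 0.40), and untreated GCH1 in SH-SY5Y against IMR-32 without replicate 5 (-0.20). Calls were lost for MAOA in SK-N-BE(2)C at 7 d with no low count filter (-0.77, adjusted p = 0.0632), SLC18A1 from 24 h to 7 d in replicates 3, 4 and 5 alone (-0.42, adjusted p = 0.196) and untreated MAOA between SK-N-BE(2)C and SH-SY5Y with library size alone (0.43, adjusted p = 0.0364, under the fold limit). The cause was not tested, apart from the libraries named.

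Leaving out 1 library at a time moved SK-N-BE(2)C values from 24 h to 7 d over -0.10 to 0.37 for GCH1, -0.034 to 0.13 for SLC6A2, -0.32 to 0.011 for TH and 1 to 4 members called. In IMR-32 SLC6A2 ran from -0.34 to 1.90 at 24 h and from -0.66 to 1.57 between the times, with 1 to 3 members called there. In SH-SY5Y TH ran from -0.21 to 0.58 at 5 d and MAOB from -0.13 to 0.12 between the times. The difference between lines at 24 h ran from -0.078 to 0.15 for MAOA, -1.13 to 1.07 for SLC6A2 and -0.52 to 0.073 for TH (SK-N-BE(2)C against IMR-32), -0.29 to 0.047 for SLC18A1 and -0.043 to 0.18 for SLC18A2 (SK-N-BE(2)C against SH-SY5Y), and -0.98 to 1.21 for SLC6A2 with 0 to 1 members called (SH-SY5Y against IMR-32). At 5 d SLC6A2 ran from -1.56 to 0.084.

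Of the values of single members with 1 library left out, 2312 kept their direction and call, 43 changed sign, 20 gained a call and 10 lost one. TH in SH-SY5Y, SLC18A1 in IMR-32 and MAOB outside SH-SY5Y rested on at most 16 counts a library, which limits any statement on them.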

Other observations

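The chromaffin granule protein CHGA, whose list was described by its counts only, was higher in all 3 lines, with log2 fold changes at the longer time of 1.02 ± 0.13, adjusted p = 3.42e-06 in SK-N-BE(2)C, 1.23 ± 0.21, adjusted p = 2.14e-04 in IMR-32 (1.40 ± 0.17, adjusted p = 8.54e-06 without replicate 5) and 1.66 ± 0.19, adjusted p = 1.23e-06 in SH-SY5Y (edgeR, named after its values were seen). CHGB, another granin of that list, was 2.89 ± 0.19, adjusted p = 4.70e-09 in SK-N-BE(2)C and 2.67 ± 0.28, adjusted p = 8.95e-07 in SH-SY5Y, both called, and in IMR-32, under the fold limit, 0.34 ± 0.13, adjusted p = 0.0455 (0.25 ± 0.067, adjusted p = 0.00431 without replicate 5). In IMR-32 at 5 d PENK was called lower (-1.95 ± 0.47, adjusted p = 0.00268, and -2.26 ± 0.48, adjusted p = 8.00e-04 without replicate 5) and DLK1 was not called (-0.33 ± 0.51, adjusted p = 0.616, and -0.29 ± 0.28, adjusted p = 0.396 without replicate 5). The dopamine receptor DRD2 was called lower in IMR-32, with log2 fold changes of -0.92 ± 0.15, adjusted p = 2.68e-04 at 24 h and -2.23 ± 0.16, adjusted p = 1.74e-07 at 5 d (-0.86 ± 0.11, adjusted p = 1.58e-05 and -2.37 ± 0.13, adjusted p = 7.08e-10 without replicate 5), and was not called in SK-N-BE(2)C (-0.54 ± 0.35, adjusted p = 0.179) or SH-SY5Y (0.07 ± 0.17, adjusted p = 0.753). Its difference between lines was not tested.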
